A study of Mus musculus with 4 samples.

Results

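The Notch pathway loci are described here as the peaks whose summits lay in 5 windows of the mouse genome (build mm9) around Dll1, Notch1, Hes1, Hes5 and Hey1. The windows were chromosome 17 from 15470000 to 15550000 for Dll1, chromosome 2 from 26280000 to 26400000 for Notch1, chromosome 16 from 30000000 to 30130000 for Hes1, chromosome 4 from 154300000 to 154370000 for Hes5 and chromosome 3 from 8600000 to 8730000 for Hey1. They spanned 530 kb together and held 60 of the 125330 peaks that 4 ChIP-seq libraries gave on chromosomes 1 to 19 and X. Of the 60 peaks, 6 were Pax6 peaks, 17 were Etv6 peaks, 6 were EGFP_OK peaks and 31 were peaks of H3K4me2, histone H3 dimethylated at lysine 4, which marks promoters and enhancers that are active or ready to be.

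All libraries came from neural progenitor-like cells derived from 129/SvJ embryonic stem cells, grown with EGF and FGF-2 and used at passages 15 to 18, and the study concerned transcription factors that interfere with dedifferentiation. The Pax6 and Etv6 libraries were made with the FLAG antibody M2, and their titles name the tagged factor after the letters NS. The title of the remaining FLAG library holds N31, EGFP and OK but no factor, so it is called EGFP_OK, and the H3K4me2 library is titled N31, Oct4, EGFP and 0 hr. Each group held 1 library, without a control library, so no value below has a replicate error, no difference between libraries could be tested, and EGFP_OK and H3K4me2 differ from Pax6 and Etv6 also in the name N31 in place of NS. The labels do not say whether these names stand for different cells.

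Notch signalling passes between touching cells. A Delta or Jagged ligand on 1 cell binds a Notch receptor on its neighbour, the receptor is cut, and its freed intracellular part enters the nucleus and joins the DNA-binding protein RBPJ to switch on targets such as the Hes and Hey genes. In neural progenitors the Hes and Hey proteins, which are basic helix-loop-helix repressors, hold back proneural genes and so keep the cells from differentiating. Pax6, with a paired domain and a homeodomain, is a regulator of forebrain and eye development, and Etv6 is a repressor of the ETS family.

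RefSeq promoter sequences were at hand for 3 of the 5 genes (4 start sites), and their 250 bases before the start are printed because motifs of RBPJ, of the POU factors' octamer and of the Hes repressors could be looked for in them. They belong to build GRCm38.p6, so they were not placed on the mm9 peaks, and whether a peak covers them is not given here. The sequences run 5′ to 3′ on the gene's strand, and capitals mark a match to TGGGAA (RBPJ), ATGCAAAT (octamer), CACGTG or CACNAG (Hes E and N boxes), CCGGAAGT (ETS) or TTCACGC (a core of the Pax6 paired-domain site), on either strand.
Hes5, chr4:154960673-154960922, plus strand: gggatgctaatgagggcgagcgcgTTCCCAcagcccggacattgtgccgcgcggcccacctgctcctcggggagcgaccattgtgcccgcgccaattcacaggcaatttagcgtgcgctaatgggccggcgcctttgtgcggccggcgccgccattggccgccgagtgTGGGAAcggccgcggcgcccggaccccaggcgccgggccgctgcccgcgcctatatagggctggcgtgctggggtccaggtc
Dll1, first start, chr17:15375824-15376073, minus strand: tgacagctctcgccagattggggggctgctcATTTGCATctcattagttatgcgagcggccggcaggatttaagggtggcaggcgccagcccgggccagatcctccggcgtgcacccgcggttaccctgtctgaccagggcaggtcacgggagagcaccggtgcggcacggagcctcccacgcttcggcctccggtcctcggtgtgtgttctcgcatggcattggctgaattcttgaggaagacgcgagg
Dll1, second start, chr17:15376933-15377182, minus strand: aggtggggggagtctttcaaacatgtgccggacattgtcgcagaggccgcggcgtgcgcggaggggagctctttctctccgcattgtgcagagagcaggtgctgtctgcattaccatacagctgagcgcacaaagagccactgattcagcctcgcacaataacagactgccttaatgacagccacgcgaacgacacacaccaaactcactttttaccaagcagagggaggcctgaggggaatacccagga
Notch1, chr2:26503823-26504072, minus strand: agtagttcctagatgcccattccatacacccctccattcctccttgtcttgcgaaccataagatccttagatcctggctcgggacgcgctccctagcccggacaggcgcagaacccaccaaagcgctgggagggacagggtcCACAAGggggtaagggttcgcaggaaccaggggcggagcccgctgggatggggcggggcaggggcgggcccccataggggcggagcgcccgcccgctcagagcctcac

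The Hes5 stretch held TGGGAA at 226 bases before the start, on the reverse strand, and again at 82 bases before it. The motif occurs in the same stretch of 21.6% of the 32851 RefSeq mouse promoters. The Dll1 starts are numbered by coordinate, so on the minus strand the first lies downstream of the second. The stretch before the first Dll1 start held the octamer at 219 bases before it, on the reverse strand, as 1.60% of all promoters do. The Notch1 stretch held CACNAG at 108 bases before the start, against 36.7% of all promoters. None of the 4 stretches held CACGTG, CCGGAAGT or TTCACGC, which are found in 6.02%, 2.88% and 1.03% of all promoters in that order. The short ETS core GGAA, left in lower case, stood in 4 of 4 stretches and in 93.4% of all promoters, and it lies within TGGGAA. These are matches of letters and not sites of binding.

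The FLAG peaks were spread unequally over the 5 windows. The Hes1 and Notch1 windows held 24 of the 29 FLAG peaks, and the Hes5 window held none. Of these 24, 10 were Etv6 peaks at Hes1. The Hes1 and Notch1 windows took up 130 and 120 of the 530 kb and held 43 of the 60 peaks of all lists. H3K4me2 peaks were found in all 5 windows, with 4 at Dll1, 9 at Notch1, 10 at Hes1, 3 at Hes5 and 5 at Hey1. Over the 5 windows Etv6 had 32.1 peaks per Mb, against 16.5 per Mb of the effective genome size for its whole list. H3K4me2 had 58.5 against 26.4, Pax6 had 11.3 against 8.88 and EGFP_OK had 11.3 against 15.2. The Pax6 and EGFP_OK values rest on 6 peaks each and have no interval, so no difference from their lists can be read from them. The windows were drawn around genes, and the part of this in the densities was not tested. The Etv6 density was set by Hes1, at 76.9 peaks per Mb, and by Notch1, at 33.3, since Hey1 had 15.4, Dll1 12.5 and Hes5 0. With 3 counts allowed for a zero, each FLAG list could have up to 42.9 peaks per Mb in the Hes5 window. This limit is above the densities of the whole lists, so the absence of FLAG peaks within these 70 kb alone does not show a lower density. The stretch without FLAG peaks ran beyond the window, and the density over that stretch was not tested.

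**Figure D1:**
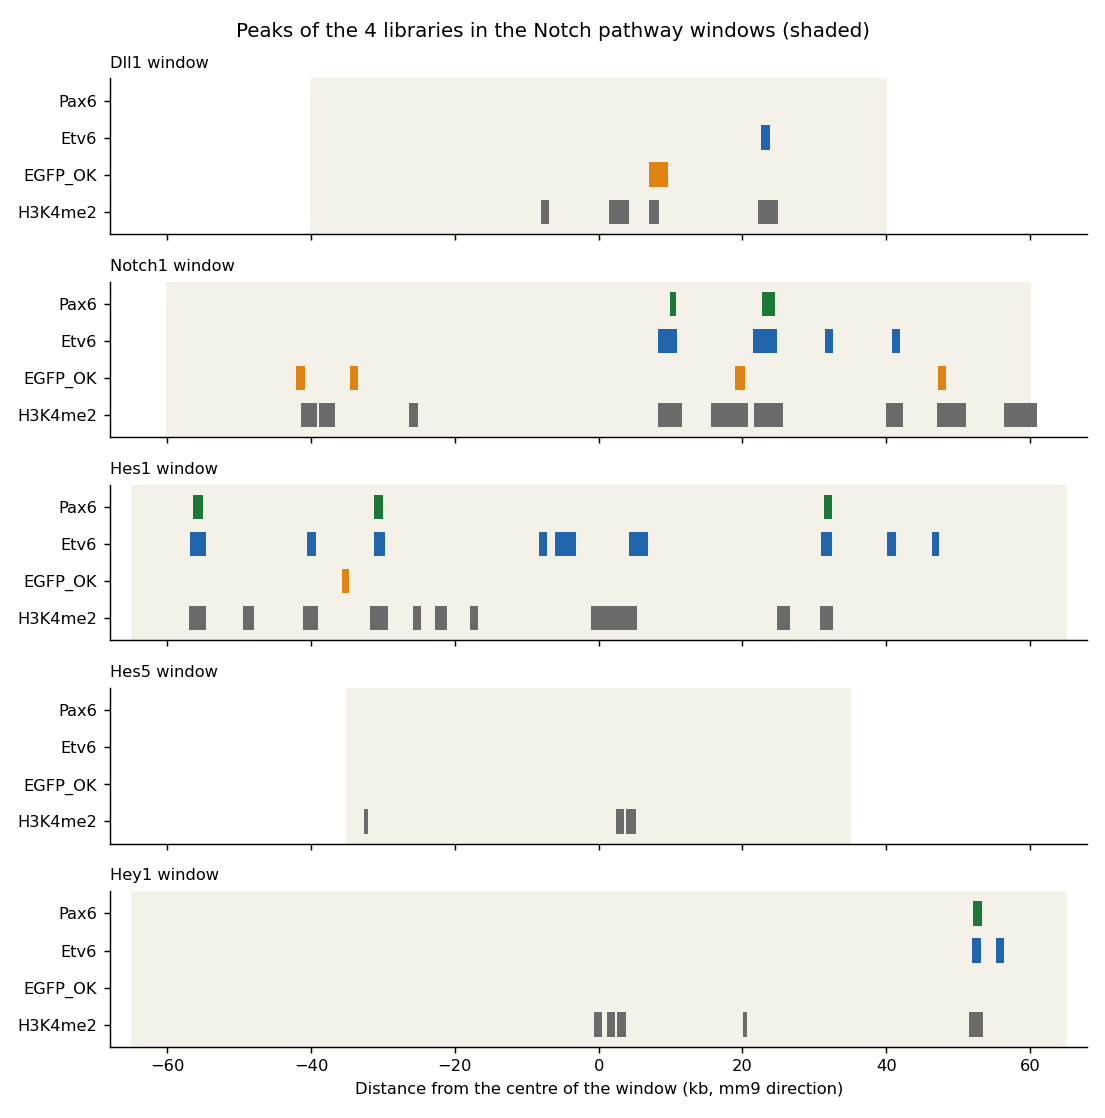
Position of each peak (coloured bar, drawn at its width) by library in the 5 windows (shaded), in kb from the centre of the window along mm9. Pax6 peaks stand above Etv6 and H3K4me2 peaks in the Notch1, Hes1 and Hey1 windows. EGFP_OK peaks stand apart from the Pax6 and Etv6 peaks, and the Hes5 window holds H3K4me2 peaks only.

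**Figure D2:**
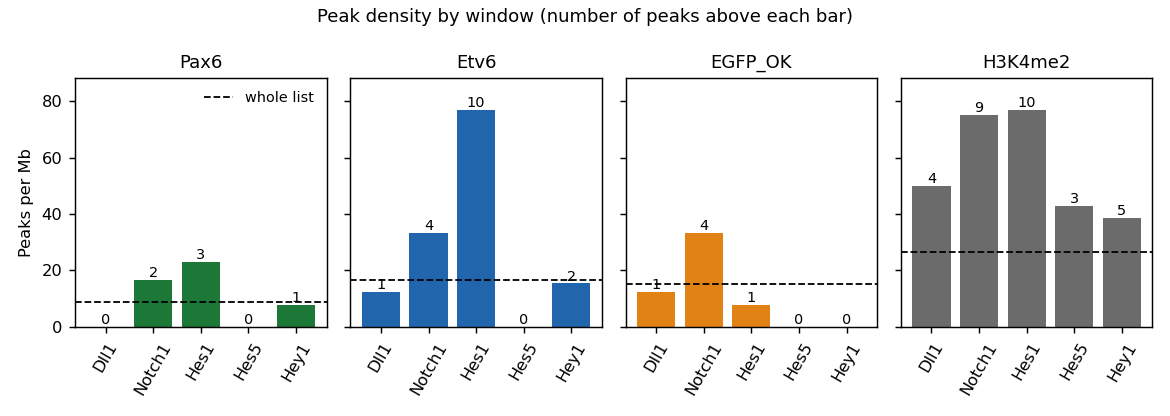
Peaks per Mb in each window (bars, with the number of peaks above) and over the whole list (dashed line, per Mb of effective genome size), by library. Etv6 reached 76.9 at Hes1 and 0 at Hes5, and every H3K4me2 bar stands above its line at 26.4.

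The libraries held 27560633 tags for Pax6, 31059965 for Etv6, 35255051 for EGFP_OK and 29371583 for H3K4me2. With duplicates removed, 5288154 remained for Pax6, 24071748 for Etv6, 21498324 for EGFP_OK and 24550365 for H3K4me2, as the share of redundant tags was 81.0%, 22.0%, 39.0% and 16.0% in that order. The weakest peak called on chromosomes 1 to 19 and X had 10 tags in the Pax6 list, 18 in Etv6, 19 in EGFP_OK and 17 in H3K4me2. Where a list has no peak, the signal was below the peak caller's limit, and no tag count is given there. A score below is the authors' 10 times −log10 p-value of a peak, and a fold is the authors' enrichment of the summit over local background in that library. A percentile is the rank of a peak by score in its own list, with 100 the highest.

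Dll1 encodes Delta-like 1, a membrane-bound ligand of the Notch receptors. In its window Etv6 and EGFP_OK each had 1 peak, at different H3K4me2 peaks, and the Pax6 list had none. The Etv6 peak, from 15532618 to 15533888, held 93 tags (95% Poisson interval 75.1 to 114) at 13.1-fold and stood at percentile 95.1 of its list. By fold it was the highest of the 17 Etv6 peaks in the 5 windows. Its summit lay 585 bp from that of the H3K4me2 peak from 15532227 to 15534901, which held 365 tags at 6.92-fold and, at percentile 98.7, ranked highest by score of the 31 H3K4me2 peaks. At the depth of the Pax6 library the 93 Etv6 tags scale to 20.4.

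The EGFP_OK peak in the Dll1 window, from 15517003 to 15519671, was the widest of its 6 at 2669 bp. It held 170 tags (145 to 198) at 9.26-fold, at percentile 83.4. Its summit lay 76 bp from the summit of an H3K4me2 peak with 139 tags at 5.38-fold, and 15510 bp from the Etv6 summit. The remaining H3K4me2 peaks of the window had no FLAG peak. They lay from 15501957 to 15503096, with 63 tags at 7.49-fold, and from 15511471 to 15514199, with 275 tags at 5.18-fold.

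Notch1 encodes the receptor. Its window had 2 Pax6, 4 Etv6, 4 EGFP_OK and 9 H3K4me2 peaks, and it held 4 of the 6 EGFP_OK peaks. H3K4me2 peaks covered a length equal to 24.1% of the window, against 17.2% at Hes1, 10.0% at Dll1, 4.48% at Hey1 and 4.28% at Hes5. Of the 6 H3K4me2 peaks wider than 3 kb in the 5 windows, 5 were at Notch1 and the other at Hes1. Such peaks made up 19.4% of the 31 (95% exact binomial interval 7.45 to 37.5), against 14.4% of the whole list.

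At Notch1 the Pax6 and Etv6 lists met at 2 regions. The stronger ran from 26361513 to 26365596 and held 59 Pax6 tags (44.9 to 76.1) at 10.0-fold, 316 Etv6 tags (282 to 353) at 6.98-fold and 330 H3K4me2 tags at 3.82-fold. No other Pax6 or Etv6 peak of the 5 windows held more tags than these. The Pax6 summit was 55 bp from the Etv6 summit, and the peaks stood at percentiles 92.3 and 94.8 of their lists.

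The other region ran from 26348235 to 26351532, with 15 Pax6 tags (8.40 to 24.7) at 12.4-fold, 170 Etv6 tags (145 to 198) at 10.3-fold and 301 H3K4me2 tags at 4.96-fold. The Pax6 and Etv6 summits were 109 bp apart. The Pax6 peak there was the narrowest of its 6, at 744 bp, within an Etv6 peak of 2575 bp. Pax6 thus had the highest fold of its members on the fewest tags.

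Etv6 had 2 further peaks at Notch1 without a Pax6 peak. That from 26380753 to 26381907 held 79 tags at 7.58-fold, with its summit 253 bp from an H3K4me2 summit. That from 26371529 to 26372531 held 37 tags at 5.39-fold, with its summit 6330 bp outside the nearest H3K4me2 peak.

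The EGFP_OK peaks at Notch1 stood elsewhere. The highest of the 6 by score, at percentile 94.4, ran from 26359003 to 26360331 and held 113 tags (93.1 to 136) at 14.9-fold. Its summit was 121 bp from the summit of the widest H3K4me2 peak of the window, 5135 bp with 566 tags at 3.13-fold, and 4119 bp from the nearest Etv6 summit and 4174 bp from the nearest Pax6 summit. A weaker EGFP_OK peak, with 37 tags at 5.34-fold, lay 314 bp from the summit of another H3K4me2 peak (26387074 to 26391033). The pair at the low end of the window had 49 tags at 11.3-fold and 37 tags at 8.18-fold. Their summits were 17 bp and 2626 bp outside the nearest H3K4me2 peak, and at least 44086 bp from any Pax6 or Etv6 summit. The H3K4me2 peak that the first of them overlapped, from 26298569 to 26300791, had the highest H3K4me2 score of the window, with 255 tags at 5.61-fold and percentile 69.3.

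Hes1 encodes a transcriptional repressor and is a direct target of Notch signalling. Its window held 3 Pax6, 10 Etv6, 1 EGFP_OK and 10 H3K4me2 peaks. All 3 Pax6 peaks lay on Etv6 and H3K4me2 peaks.

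The first Hes1 region, from 30008011 to 30010394, held 32 Pax6 tags (21.9 to 45.2) at 10.1-fold, 160 Etv6 tags (136 to 187) at 5.19-fold and 244 H3K4me2 tags at 6.41-fold. The region from 30033143 to 30035732 held 18 Pax6 tags (10.7 to 28.4) at 9.10-fold, 131 Etv6 tags (110 to 155) at 6.29-fold and 170 H3K4me2 tags at 2.83-fold. The region from 30095794 to 30097641 held 20 Pax6 tags (12.2 to 30.9) at 11.3-fold, 119 Etv6 tags (98.6 to 142) at 11.2-fold and 115 H3K4me2 tags at 5.95-fold. The last had the highest Etv6 fold of the window and stood at percentile 92.3 of the Etv6 list. Its Pax6 peak stood at percentile 71.9, that of the first region at 71.7 and that of the middle region at 16.7. The Pax6 and Etv6 summits were 52 bp, 322 bp and 147 bp apart along the window, and the middle pair was the farthest apart of the 6 such pairs in the 5 windows.

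The other 7 Etv6 peaks of the Hes1 window had no Pax6 peak. A group of 4 of them, chosen after their values were seen, filled the middle of the window from 30056672 to 30071863, a stretch of 15.2 kb. They held 74, 206, 131 and 117 tags, together 528 of the 1103 tags in Etv6 peaks of the window (47.9%). Their folds were low, from 3.90 to 5.01, and their percentiles ran from 9.64 to 40.1, while the 6 other Etv6 peaks of the window had folds of 5.19 to 11.2 and percentiles of 0.663 to 92.3. The group flanked and partly overlapped the widest H3K4me2 peak of the 5 windows, 6370 bp from 30063949 to 30070318, which held the most tags of the 31, 795, at 2.85-fold and percentile 15.4. The 4 Etv6 peaks thus held more tags than the median of their list, 54.0, but had scores below its median. The same was true of this H3K4me2 peak, against a median of 120 tags in its list. Of the 4 Etv6 peaks, that of 206 tags was 2902 bp wide, and the others were 1152 to 1330 bp. The peak caller sets each peak against the background of its surroundings over 10 kb, and the part of that step in the low folds was not tested.

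Beyond the group, Etv6 had a peak of 63 tags at 6.08-fold on an H3K4me2 peak (30023836 to 30025925). It also had a pair outside H3K4me2, with 60 tags at 6.45-fold (30105179 to 30106296) and 42 tags at 6.01-fold (30111386 to 30112383). The only EGFP_OK peak of the Hes1 window, from 30029335 to 30030232, held 42 tags (30.3 to 56.8) at 7.99-fold. Its summit lay 3282 bp outside the nearest H3K4me2 peak, 4534 bp from the nearest Pax6 summit and 4856 bp from the nearest Etv6 summit. H3K4me2 without any FLAG peak was found at 5 places in the window, with 52 to 107 tags.

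Hes5 encodes a second Hes repressor that is typical of neural progenitors. No Pax6, Etv6 or EGFP_OK peak lay in its window. It had 3 H3K4me2 peaks. A neighbouring pair, from 154337452 to 154338473 and from 154338795 to 154340167, held 82 and 94 tags at 8.05-fold and 6.56-fold, at percentiles 55.4 and 50.6. The last, near the low edge of the window, held 23 tags at 6.35-fold, the fewest of the 31. The nearest FLAG peak in the lists was a Pax6 peak of 10 tags, the fewest the list holds, with its summit 71148 bp beyond the upper edge. Below the lower edge the nearest summits lay at 678391 bp for Etv6, 1772776 bp for EGFP_OK and 1772786 bp for Pax6. The window thus lay in a longer stretch without FLAG peaks.

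Hey1 encodes a Hes-related repressor. In its window 1 Pax6 and 2 Etv6 peaks lay close to the upper end, and EGFP_OK had none. The shared region, from 8716538 to 8718417, held 26 Pax6 tags (17.0 to 38.1) at 6.52-fold, 84 Etv6 tags (67.0 to 104) at 6.65-fold and 134 H3K4me2 tags at 8.42-fold. The Pax6 and Etv6 summits there were 40 bp apart, the closest of the 6 pairs, and the H3K4me2 fold was the highest of the 31. The second Etv6 peak, from 8720249 to 8721443, held 82 tags at 7.87-fold, with its summit 2265 bp outside that H3K4me2 peak. A group of 3 H3K4me2 peaks near the centre of the window, from 8664345 to 8668820, held 69, 83 and 114 tags at 5.69-fold, 5.84-fold and 5.41-fold and had no FLAG peak, and neither did a small peak of 24 tags.

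To ask whether the factors met at the Notch loci, the lists were joined into regions by an overlap of at least 1 bp. The 60 peaks formed 40 regions, of which 23 held a FLAG peak. Pax6 and Etv6 shared 6 regions, and each of these also had H3K4me2. The remaining FLAG regions were 4 with Etv6 and H3K4me2, 7 with Etv6 alone, 4 with EGFP_OK and H3K4me2 and 2 with EGFP_OK alone. H3K4me2 stood alone in 17 regions, and no region held EGFP_OK with another FLAG list.

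All 6 Pax6 peaks overlapped an Etv6 peak (100%, 95% exact binomial interval 54.1 to 100), against 72.6% of the Pax6 list. Of the 17 Etv6 peaks, 6 overlapped a Pax6 peak (35.3%, 14.2 to 61.7), against 38.9% of the Etv6 list. Of the 6 EGFP_OK peaks, 0 overlapped a Pax6 peak and 0 an Etv6 peak (intervals to 45.9%), against 11.7% and 20.9% of the EGFP_OK list. Of the 17 Etv6 peaks, 0 overlapped an EGFP_OK peak (to 19.5%), against 19.2% of the Etv6 list. For the 6 Pax6 peaks the count was also 0 (to 45.9%), against 20.1% of the Pax6 list. Each of these intervals holds the share of the whole list, so at these numbers of peaks no difference from the lists was detectable. When both lists were limited to scores from 100 upward, 1 of 10 Etv6 peaks overlapped a Pax6 peak (10.0%), against 24.0% of the Etv6 list so limited.

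All 6 Pax6 summits lay inside an H3K4me2 peak (100%, 54.1 to 100), against 43.7% of the Pax6 list. The share for Etv6 was 10 of 17 (58.8%, 32.9 to 81.6), against 51.9%, and for EGFP_OK 3 of 6 (50.0%, 11.8 to 88.2), against 26.9%. The Pax6 interval was the only one of the 3 that left out the share of its list. The 6 summits lay in the Notch1, Hes1 and Hey1 windows and are not independent, so this interval may be too narrow. H3K4me2 peaks covered a length equal to 12.9% of the 5 windows, against 5.08% of the effective genome size. The part of this in the Pax6 share was not tested. With each list shortened to its 16604 highest scores, 3 of 6 Pax6 summits (50.0%) and 0 of 5 EGFP_OK summits lay in H3K4me2, against 16.8% and 12.1% of the lists so shortened, and the windows then held 6 H3K4me2 peaks in place of 31. Of the 7 Etv6 summits outside H3K4me2, 5 were in the Hes1 window. None of the 7 overlapped a Pax6 peak and 6 of the 10 inside did, against 39.5% of the Etv6 list outside and 38.3% inside. All 6 Pax6 summits lay in H3K4me2 and all 6 Pax6 peaks overlapped Etv6, so this split largely restates those counts. It has no interval and is no further result. The median fold of the 17 Etv6 peaks was 5.39 outside and 6.82 inside, against 6.27 and 6.26 in the list. Their median tag count was 74.0 outside and 125 inside, against 49.0 and 59.0 in the list. Seen from the mark, 13 of the 31 H3K4me2 peaks held a FLAG summit (41.9%, 24.5 to 60.9), against 40.3% of the H3K4me2 list. These 13 had a median width of 2590 bp and a range of 1495 to 6370 bp, against a median of 1210 bp and a range of 500 to 4590 bp for the 18 without a FLAG summit. The whole list showed medians of 2133 bp with and 1384 bp without.

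**Figure D3:**
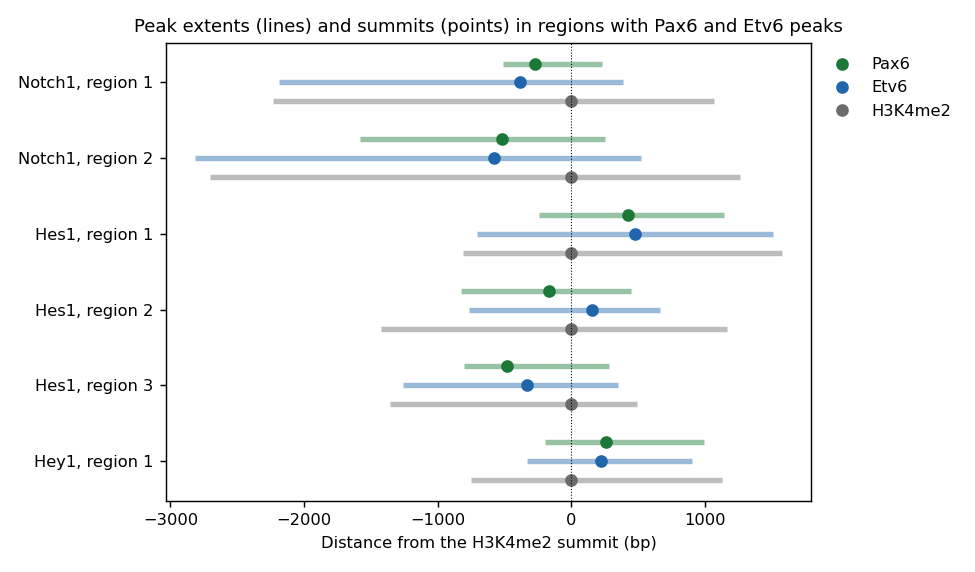
Extent (line) and summit (point) of the Pax6, Etv6 and H3K4me2 peaks in the 6 regions where they overlap, in bp from the H3K4me2 summit, with regions numbered along each window. Pax6 and Etv6 summits lie within 40 to 322 bp of each other and to the same side of the H3K4me2 summit, except in the middle Hes1 region, where they fall on opposite sides.

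In the 6 shared regions the factors' summits lay closer to each other than to the H3K4me2 summit in all but the middle Hes1 region. The median distance between Pax6 and Etv6 summits was 82.0 bp, against 76.0 bp over the 12050 overlapping pairs of the whole lists. Pax6 summits lay 169 to 521 bp and Etv6 summits 153 to 576 bp from the H3K4me2 summit. At 3 of the 6 regions the Pax6 and Etv6 summits were within 100 bp of each other (50.0%), against 60.5% of all pairs.

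The balance of Pax6 to Etv6 tags varied between the shared regions. Scaled by kept tags, the ratio of Pax6 to Etv6 was 1.41 at Hey1 (95% exact interval 0.871 to 2.21), 0.910 (0.602 to 1.34), 0.625 (0.359 to 1.03) and 0.765 (0.451 to 1.24) along Hes1, and 0.402 (0.220 to 0.681) and 0.850 (0.632 to 1.13) along Notch1. The interval held 1 at 5 of the 6, the exception being the first Notch1 region, with the narrow Pax6 peak. Divided by peak width, that region had 3.81 Pax6 tags per kb and 1000000 kept tags, against 2.74 for Etv6, a ratio of 1.39, so its direction depended on the width. By this measure the ratio was above 1 at 5 of the 6 regions and ran from 0.698, in the middle Hes1 region, to 1.55. Pax6 peaks were also the narrower ones in the whole lists (median width: Pax6 971 bp, Etv6 1113 bp). Neither the ratio per kb nor the number of intervals holding 1 was computed over all overlapping pairs. Both counts therefore describe the 6 regions only and do not show a stronger Pax6 signal there than elsewhere. The raw ratio of Pax6 to Etv6 tags had a median of 0.177 over the 6 regions, against 0.290 over all overlapping pairs and 0.220 for the kept tags of the libraries. The intervals cover counting error only.

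For the 11 Etv6 peaks without a Pax6 peak, the tags were scaled to the Pax6 depth by 0.220. This gave 8.13 to 45.3 tags, with a median of 17.4, and 9 of the 11 reached the 10 tags of the weakest Pax6 peak in the list. At 4 of the 11 the scaled count was at or above 19, the median of the Pax6 list. These were the Etv6 peak at Dll1 and 3 of the middle group at Hes1, the highest being 45.3 from the peak of 206 tags. Scaled by 0.290, the median ratio of overlapping pairs, 11 of the 11 reached 10 tags and 7 reached 19. Scaled tags include the background under a peak, so they do not say that a Pax6 peak would have been called. The same counts were not computed over all Etv6 peaks of the list without a Pax6 peak. They therefore do not set the 11 apart from the list.

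**Figure D4:**
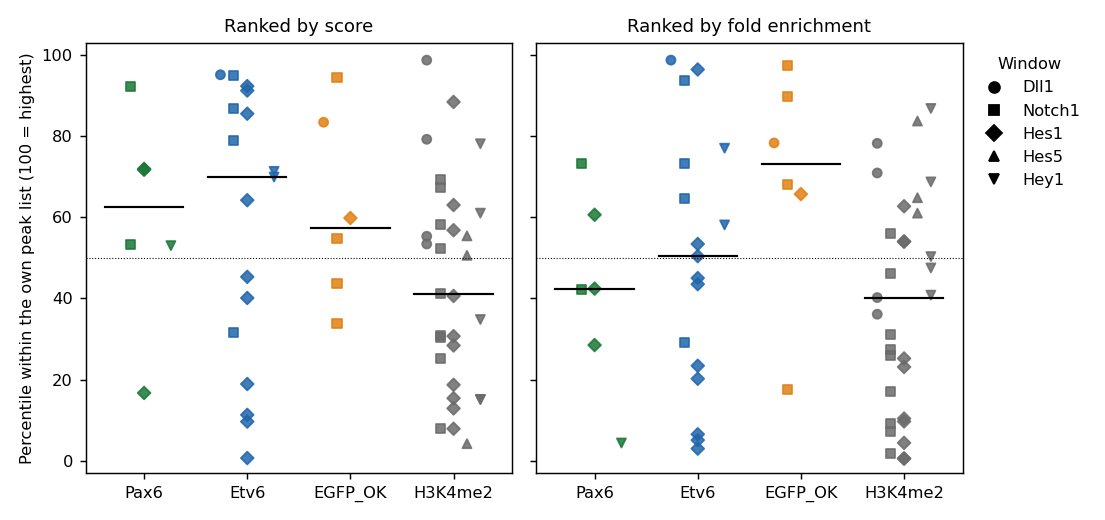
Percentile of each of the 60 peaks within its own list, by score (left) and by fold enrichment (right); symbols give the window, black lines the median and the dotted line the 50 of a whole list. Etv6 peaks spread from 0.663 to 95.1 by score, with a median of 69.9, and H3K4me2 peaks had medians of 41.2 by score and 40.2 by fold.

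Within their lists the peaks of the Notch loci ranked from the bottom to near the top. By score the median percentile was 62.5 for Pax6 (range 16.7 to 92.3), 69.9 for Etv6 (0.663 to 95.1), 57.3 for EGFP_OK (33.9 to 94.4) and 41.2 for H3K4me2 (4.20 to 98.7). By fold the medians were 42.3, 50.4, 73.2 and 40.2 in the same order. A score of at least 100 was reached by 1 of the 6 Pax6 peaks, against 25.3% of the Pax6 list, by 10 of the 17 Etv6 peaks, against 45.5%, by 4 of the 6 EGFP_OK peaks, against 45.5%, and by 22 of the 31 H3K4me2 peaks, against 73.5%. The median fold was 10.0 for Pax6, against 10.6 in its list, 6.29 for Etv6, against 6.26, 8.72 for EGFP_OK, against 7.04, and 5.38 for H3K4me2, against 5.82.

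The wider H3K4me2 peaks of the Notch loci tended to have the lower folds. Spearman's rho between width and fold was -0.51 over the 31 peaks, which share 1 library, against -0.28 over the 49457 peaks of the list. In the Hes1 window 7 of the 10 H3K4me2 peaks had a fold under 5, against 32.4% of the list. Low folds were not particular to Hes1, since most H3K4me2 peaks at Notch1 were also under 5, in a range of 3.13 to 6.07. The lowest H3K4me2 fold was 5.18 at Dll1, 6.35 at Hes5 and 5.41 at Hey1. For the FLAG peaks the rho between width and fold was -0.49 over 6 Pax6, 0.069 over 17 Etv6 and 0.77 over 6 EGFP_OK peaks. Over their lists it was -0.17, 0.026 and 0.15. These values rest on few peaks and have no interval, so no difference between the libraries can be read from them.

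**Figure D5:**
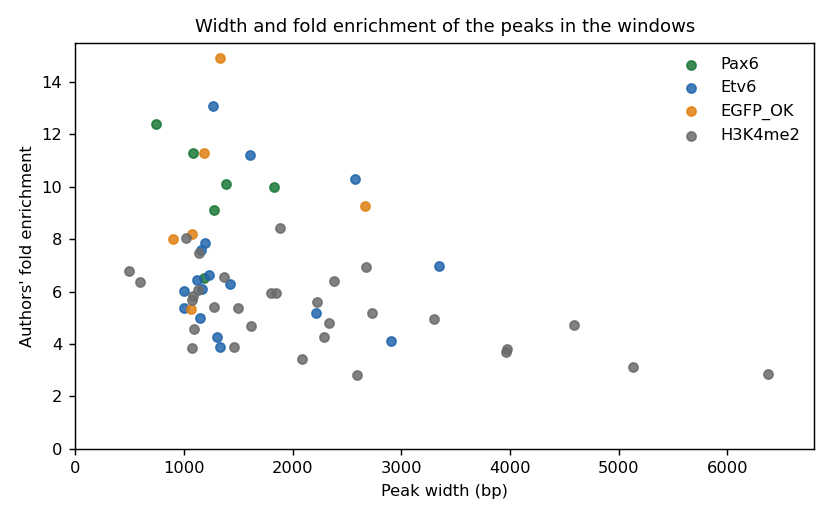
Width (bp) and the authors' fold enrichment (ratio to local background) of the 60 peaks, coloured by library. The narrowest H3K4me2 peak, of 500 bp, had 6.80-fold and the widest, of 6370 bp, had 2.85-fold. The lowest H3K4me2 fold was 2.83 at 2590 bp and the highest 8.42 at 1880 bp, and the FLAG peaks reach 14.9-fold at 1329 bp.

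The windows have fixed edges, and peaks lay on both sides of them. The H3K4me2 summit closest to an edge from inside lay 792 bp within the Notch1 window, in a peak of 358 tags at 4.71-fold that ran past the edge. The closest from outside lay 5219 bp below the Hey1 window, in an H3K4me2 peak of 80 tags at 13.2-fold. Of the FLAG peaks, an Etv6 peak of 160 tags and a Pax6 peak of 32 tags lay 9296 and 9244 bp inside the Hes1 window. The nearest outside were an Etv6 peak of 38 tags at 4.75-fold, 10479 bp below the Hes1 window, and an EGFP_OK peak of 80 tags at 16.4-fold, 11669 bp above the Dll1 window. In RefSeq's GRCm38 annotation the nearest named protein-coding genes are Ermard and Fam120b beside Dll1, Sec16a and Egfl7 beside Notch1, Opa1 and Cpn2 beside Hes1, Tnfrsf14 and Pank4 beside Hes5, and Stmn2 and Mrps28 beside Hey1. No mm9 annotation was used, so peaks were tied to a window and not to an exon, an intron or a start, and the other ligands, receptors and targets of the pathway were not placed.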

How the data were processed

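Each of the 4 libraries had 1 deposited peak list in mm9. MACS 1.4.2 was run on each library alone, per the file headers, without a control. Its p cutoff was 1e-05 and its effective genome size 1.87e+09. The background was taken over 10 kb, and 1 tag was kept per position. The submitters' processing notes also name CASAVA 1.8.1 and BWA 0.6.2, with no role. The lists give tag counts, deposited by the authors without normalization, a score of 10 times −log10 p, per the file headers, and a fold, the ratio of summit to local background, per the file headers.

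Here peaks on chromosomes 1 to 19 and X were assigned to the windows by summit and compared by overlap of at least 1 bp, or by a summit inside an H3K4me2 peak, with Python 3.11.15 (scipy 1.17.1, pandas 2.3.3, numpy 2.4.6). Overlap code was checked on simulated lists. Intervals (95%) are exact binomial (Clopper-Pearson) or Poisson and cover counting error, and neighbouring peaks are not independent. With 1 library per group no test was run. The text names every region shared by FLAG lists and the peak of highest score of each list in each window; further peaks were named after their values were seen. The windows, genes and lists were chosen with earlier results of these data known. Because no mm9 genome or annotation was at hand, sequences under the peaks, other pathway genes and cell type markers were not analysed.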

Additional observations from a re-analysis of the deposited data

How the results depend on the processing

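Of 79 values recomputed under another setting, 71 stayed within 1.5 times the count or within the interval of the value as reported. Many of them had little room to move. The overlaps with EGFP_OK were 0 as reported, and most settings could only remove overlaps. Values over 6 peaks had wide bounds, such as 54.1 to 100 for a Pax6 share and 16.7 to 92.3 for the Pax6 median percentile. The count of 71 is therefore no measure of how stable the results are. With a score of at least 100, Pax6 kept 1 peak in the windows and Etv6 10, and the share of Etv6 peaks with a Pax6 peak was 10.0%. With lists shortened to equal length by score, the windows held 10 Etv6 and 6 H3K4me2 peaks, and the share of summits in H3K4me2 was 50.0% for Pax6 and 0% (0 of 5) for EGFP_OK. Windows narrowed by 25 kb on each side held 10 Etv6 peaks. Fewer peaks enter by construction in each of these. The count of 6 of 6 Pax6 summits in H3K4me2 therefore rests in part on H3K4me2 peaks outside the shortened list. Wider windows, summits within 200 bp, an overlap of 50% of the shorter peak, any overlap with H3K4me2 and ranking by fold left every value they were run on within those bounds. No paired analysis was possible because each group held 1 library. The Pax6 library kept the fewest tags, 5288154, and the part of its depth in the missing Pax6 peaks was not tested.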
